A study of Homo sapiens with 6 samples.

Results

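A set of 10 genes of the TGF-beta and BMP pathways was examined in glioblastoma cells that overexpressed RBFOX1. It held the ligand genes TGFB1, TGFB2, TGFB3, INHBA, BMP2 and BMP4, the inhibitory SMAD gene SMAD7, and the inhibitor of differentiation genes ID1, ID2 and ID3. These 10 genes were taken by name from the 58051 gene identifiers of the count files, and all 10 were found. A172 is a long-established line of human glioblastoma cells. RBFOX1 is an RNA-binding protein of neurons and muscle that regulates splicing and mRNA stability through the motif written TGCATG in DNA letters. The control cells were A172 overexpressing GFP and the compared cells were A172 overexpressing RBFOX1, both made stable by lentiviral transduction with a plasmid for the protein named, with 3 libraries of each. All 6 libraries share the A172 background, and transduced A172 cells are not a sample of other tumours. No label says that a line was 1 clone, and no time after transduction is given in the labels.

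TGF-beta ligands bind a type II receptor that recruits and activates a type I receptor, which phosphorylates SMAD2 and SMAD3. BMP ligands act in the same way through SMAD1, SMAD5 and SMAD9, and both branches share SMAD4. SMAD7 is induced by the pathway and blocks its receptors, and the ID genes are classical BMP targets whose proteins bind bHLH transcription factors and keep them off DNA. In glioblastoma, TGF-beta signalling is known for its part in invasion, immune suppression and the maintenance of stem-like cells.

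Sequences of the genes were read to show what the overexpressed protein and the pathway's own SMAD factors could meet in them. Of the 10 canonical 3′ UTRs searched whole, on the transcript strand, INHBA alone held TGCATG. Its 3′ UTR of 4536 nucleotides held 2 sites, at 2555 and 2610 nucleotides after the stop codon, on the minus strand of chromosome 7 (GRCh38). Both sites are shown with the motif in capitals because they are the only matches to TGCATG among these 3′ UTRs. Shorter or variant forms of the RBFOX motif were not searched, so the other 3′ UTRs may hold them.
INHBA site at chr7:41687080-41687105, minus strand: caatacgcacTGCATGagaagcttga
INHBA site at chr7:41687025-41687050, minus strand: ttggatatcaTGCATGtgggaaggtg
Among 1527 canonical 3′ UTRs within 20% of this length, 72.9% held at least 1 TGCATG, so a match is common at this length. The 3′ UTR of TGFB2, at 3257 nucleotides, held none, where 62.2% of 2106 like-length 3′ UTRs held the motif. A match is a description of letters and not of binding.

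RefSeq promoters, from 250 bases before to 50 bases after a RefSeq start on GRCh38.p14, matched 9 of the 10 genes, BMP2 being the one without an entry. For INHBA, BMP4 and ID2 this start lies 2744, 3711 and 3211 bases inside the gene span given below, which begins at another annotated start, and for the other 6 it lies within 6 bases of the span's 5′ end. The letters CAGAC, which SMAD3 and SMAD4 recognise, were searched on both strands, as was the GC-rich SMAD motif GGCGCC, and no 2 matches overlapped. CAGAC occurred in 6 of the 9 promoters, against 45% of 27305 promoters of this length, and GGCGCC in 1 of the 9, that of BMP4, against 19%. The promoters of TGFB2, TGFB3 and SMAD7 held 2 CAGAC matches each, those of INHBA, BMP4 and ID3 held 1 each, and those of TGFB1, ID1 and ID2 held none. The promoters of the 3 ID genes, of TGFB2 and of SMAD7 are printed with CAGAC in capitals, since these paralogs and their inhibitor differed in direction in the results that follow.
TGFB2 at chr1:218345086-218345385, plus strand: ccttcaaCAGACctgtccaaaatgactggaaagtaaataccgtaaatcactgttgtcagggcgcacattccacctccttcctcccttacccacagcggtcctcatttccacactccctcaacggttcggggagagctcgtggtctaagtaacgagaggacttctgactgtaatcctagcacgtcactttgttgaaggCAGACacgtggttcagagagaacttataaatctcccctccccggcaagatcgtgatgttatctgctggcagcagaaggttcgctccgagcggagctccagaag
SMAD7 at chr18:48950916-48951215, minus strand: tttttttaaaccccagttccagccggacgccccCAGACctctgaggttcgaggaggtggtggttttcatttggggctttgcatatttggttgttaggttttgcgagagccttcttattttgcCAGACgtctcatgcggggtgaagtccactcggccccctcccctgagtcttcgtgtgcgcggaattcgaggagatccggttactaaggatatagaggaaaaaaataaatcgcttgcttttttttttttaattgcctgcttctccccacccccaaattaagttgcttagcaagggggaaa
ID1 at chr20:31605039-31605338, plus strand: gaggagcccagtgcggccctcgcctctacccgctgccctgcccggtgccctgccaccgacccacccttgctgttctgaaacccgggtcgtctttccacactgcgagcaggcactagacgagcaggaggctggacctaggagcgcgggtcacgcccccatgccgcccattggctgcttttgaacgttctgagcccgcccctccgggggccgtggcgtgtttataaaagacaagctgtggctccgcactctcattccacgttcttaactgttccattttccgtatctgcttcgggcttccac
ID2 at chr2:8681806-8682105, plus strand: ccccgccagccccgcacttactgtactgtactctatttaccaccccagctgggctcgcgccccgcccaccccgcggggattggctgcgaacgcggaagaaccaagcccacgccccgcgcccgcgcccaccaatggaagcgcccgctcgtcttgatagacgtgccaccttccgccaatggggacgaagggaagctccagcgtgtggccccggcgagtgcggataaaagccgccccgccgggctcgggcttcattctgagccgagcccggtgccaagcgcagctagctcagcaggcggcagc
ID3 at chr1:23559452-23559751, minus strand: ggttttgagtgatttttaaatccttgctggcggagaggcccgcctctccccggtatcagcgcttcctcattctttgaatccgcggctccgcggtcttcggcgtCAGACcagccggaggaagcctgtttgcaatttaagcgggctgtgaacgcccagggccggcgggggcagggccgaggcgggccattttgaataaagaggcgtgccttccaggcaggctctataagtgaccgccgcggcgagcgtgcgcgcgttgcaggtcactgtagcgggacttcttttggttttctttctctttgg
Counted from the RefSeq start, the matches of TGFB2 began at bases -243 and -53, those of SMAD7 at -217 and -128, and that of ID3 at -147. Absence of these letters from a window of this size says nothing about the factors.

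The libraries held 7433414 to 23249221 counts on genes, RBFOX1 replicate 1 being the shallowest and GFP replicate 1 the deepest. RBFOX1 itself had 4, 0 and 1 counts in GFP replicates 1, 2 and 3 and 10276, 16467 and 21451 counts in the RBFOX1 replicates, so each label matched. GFP replicate 1 stood apart from its replicates, its chi-square over degrees of freedom being 8.08 and 8.23 against the other two, where other replicate pairs gave 1.6 to 2.8. Mesenchymal and progenitor markers were present, VIM at 20578 to 103593 counts, whereas the astroglial markers GFAP (1 to 4 counts) and S100B (0 to 2 counts) were near 0. The markers that were present differed between the groups and in direction. VIM, CD44 and OLIG2 were lower in RBFOX1 cells, at log2 fold changes of -0.65, -0.90 and -0.50. NES and SOX2 were higher, at 0.60 and 2.53. Of 9 markers of leukocytes, epithelium, endothelium, neurons and oligodendrocytes, 8 were tested and 6 were higher in RBFOX1 cells. Their summed level was 46.4 to 56.5 normalized counts in GFP and 201 to 214 in RBFOX1 libraries. No marker was at 0 in every RBFOX1 library, and the part of these markers in the results was not tested.

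A normalized count is a count divided by the library's effective size (total on genes times the TMM factor) relative to the mean of the 6, and a gene was called where edgeR's quasi-likelihood test gave a Benjamini-Hochberg adjusted p under 0.05 over all 20536 genes tested. Of the 10 genes, 9 were tested, 5 were higher, 2 were lower and 2 did not pass the threshold, while BMP2 had too few counts to test. TGFB2, TGFB3, INHBA, ID2 and ID3 rose, and SMAD7 and ID1 fell. Over all genes tested, 46.6% were called, 23.7% as higher and 22.9% as lower, and the 7 calls among 9 genes are to be read against that background. The median log2 fold change (RBFOX1 over GFP) of the 9 genes was 1.17, against 0.01 over all genes tested. In 7 of the 9 the normalized counts of the groups did not overlap, against 53.4% of all genes tested. Without GFP replicate 1 the 7 called genes passed the threshold as well, at log2 fold changes of 1.41 for TGFB2, 2.59 for TGFB3, 3.94 for INHBA, 2.74 for ID2, 1.17 for ID3, -0.54 for SMAD7 and -0.19 for ID1. In RNA from whole cultures, fewer cells of a type and less RNA per cell cannot be told apart.

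**Figure D1:**
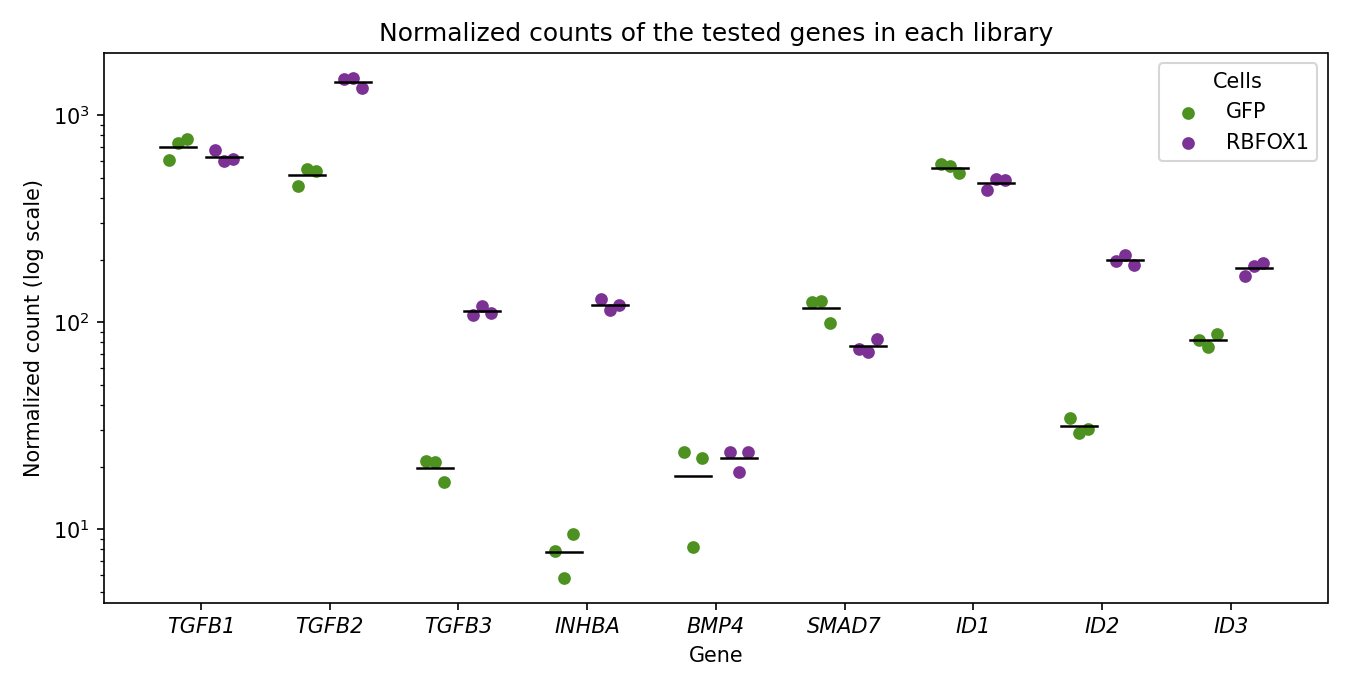
Normalized counts (log scale) of the 9 tested genes in each library, GFP in green and RBFOX1 in purple, with a black line at the mean of each group of 3. The RBFOX1 points lie above the GFP points for TGFB2, TGFB3, INHBA, ID2 and ID3, below them for SMAD7 and ID1, and among them for TGFB1 and BMP4.

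The TGFB genes encode the 3 isoforms of TGF-beta, which are secreted in latent complexes. TGFB2 (ENSG00000092969), which encodes the isoform first described as a suppressor of T cells released by glioblastoma, lies on chromosome 1 of GRCh38 from 218345336 to 218444619. It had 458, 551 and 538 normalized counts in the GFP libraries and 1491, 1514 and 1352 in the RBFOX1 libraries. Every RBFOX1 library was thus above every GFP library. The means were 516 ± 50.7 (SD, n = 3) and 1453 ± 87.6 (SD, n = 3), a 2.82-fold rise. Its log2 fold change was 1.504 (standard error 0.0722, adjusted p = 9.39e-13 by edgeR's quasi-likelihood test).

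TGFB3 (ENSG00000119699, chromosome 14 from 75958097 to 75983011) encodes the isoform best known from palate fusion and mesenchymal tissue. It was scarce in GFP cells, at 21.3, 21 and 16.9 normalized counts, and reached 109, 120 and 111 in RBFOX1 cells. The groups were far apart, and the log2 fold change was 2.50 (standard error 0.167, adjusted p = 1.52e-10 by edgeR), or 5.75-fold.

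TGFB1 (ENSG00000105329, chromosome 19 from 41301587 to 41353922), the isoform most abundant in many tissues, did not follow its paralogs. Its normalized counts were 611, 738 and 767 in GFP and 682, 598 and 615 in RBFOX1 libraries. The groups overlapped, with GFP replicate 1 below RBFOX1 replicates 1 and 3. The log2 fold change was -0.16 with a 95% interval from -0.33 to 0.02 (adjusted p = 0.132 by edgeR), which includes 0. Without GFP replicate 1, the library that stood apart, it was -0.26 with an adjusted p of 0.00256 by edgeR, past the threshold.

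Because their transcripts differ in length, isoforms were compared as normalized counts per kilobase of exon. The summed level of the TGFB genes on this scale was 305 ± 33.2 (SD, n = 3) in GFP and 455 ± 21.4 (SD, n = 3) in RBFOX1 cells, a 1.49-fold difference. TGFB1 made up 70.1, 70.4 and 71.8% of it in the GFP libraries and 43.9, 40.2 and 43.5% in the RBFOX1 libraries. TGFB2 made up 28.3, 28.4 and 27.2% against 51.8, 54.8 and 51.6%, and so was the most abundant isoform in every RBFOX1 library and in no GFP library. TGFB3 took 1.25 ± 0.269% (SD, n = 3) in GFP and 4.78 ± 0.35% (SD, n = 3) in RBFOX1 cells. For each of the 7 shares and 2 sums of the TGFB and ID families, no libraries overlapped between the groups and a two-sided exact permutation test gave p = 0.1, the smallest value that 3 against 3 allows, and 0.1 after Benjamini-Hochberg adjustment over the 9 tests. Shares of 1 family sum to the whole, so they are not independent of each other.

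**Figure D2:**
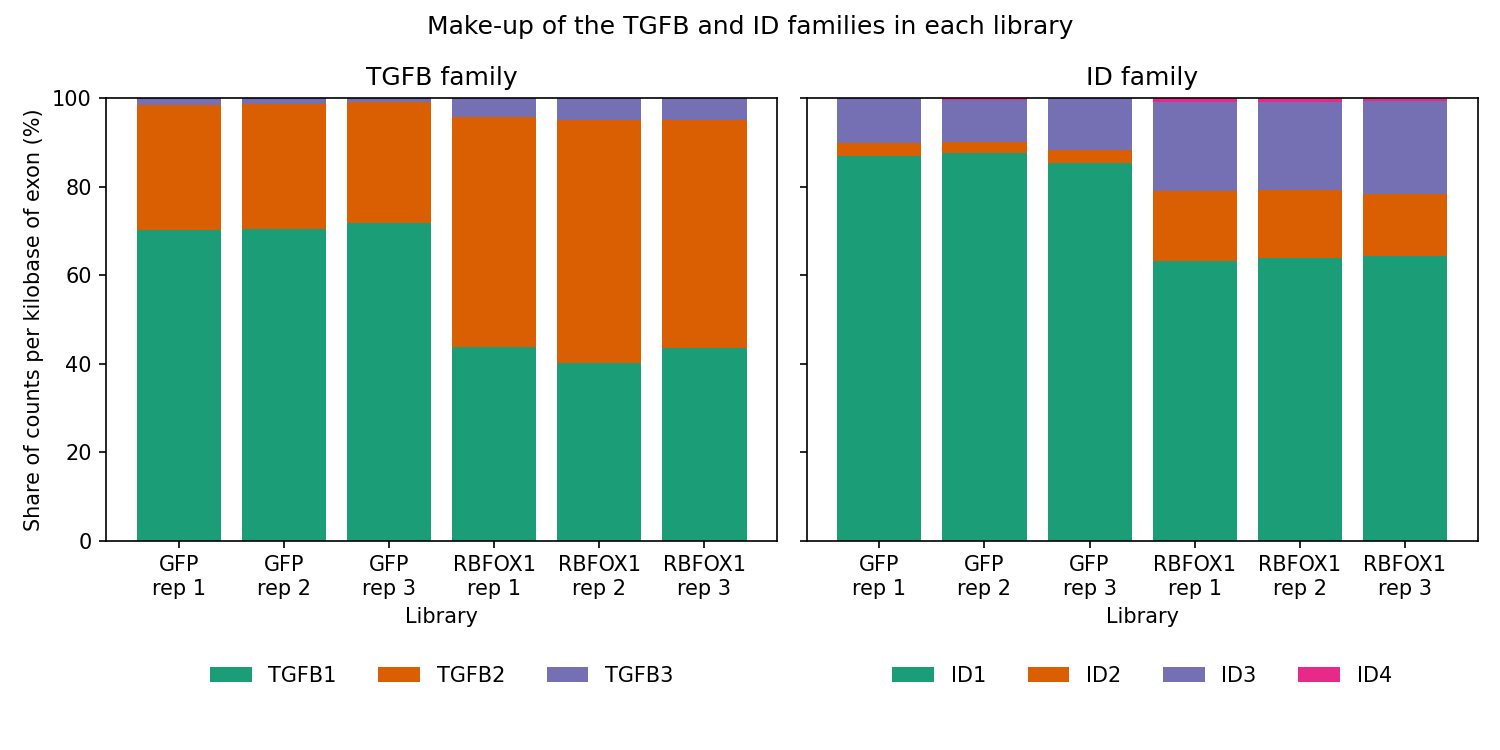
Share (%) of the summed normalized counts per kilobase of exon taken by each TGFB gene (left) and each ID gene (right), one stacked bar per library. The TGFB2 share is 27.2 to 28.4% in GFP and 51.6 to 54.8% in RBFOX1 libraries, and the ID1 share is 85.4 to 87.5% in GFP and 63.1 to 64.4% in RBFOX1 libraries.

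INHBA (ENSG00000122641, chromosome 7 from 41667168 to 41705834) encodes the beta A subunit whose dimer is activin A, a ligand that signals through SMAD2 and SMAD3. Its raw counts were 13, 5 and 9 in the GFP libraries and 71, 103 and 133 in the RBFOX1 libraries. Normalized, the GFP libraries lay at 7.89, 5.84 and 9.48 and the RBFOX1 libraries at 129, 114 and 121. INHBA had the largest fold change of the 9 tested genes, with a log2 value of 3.93 (standard error 0.203, adjusted p = 2.87e-12 by edgeR), or 15.7-fold. This was also the gene with both TGCATG sites printed above, and whether the sites bear on its level was not tested.

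BMP4 and BMP2 were at low levels in both groups. BMP4 (ENSG00000125378, chromosome 14 from 53949736 to 53958761), a ligand known to push glioblastoma stem-like cells towards astroglial differentiation, had 23.7, 8.18 and 22.1 normalized counts in GFP and 23.6, 18.9 and 23.7 in RBFOX1 libraries. Only GFP replicate 2, with 7 counts, was low, and the groups overlapped. The log2 fold change was 0.20 with a 95% interval from -0.45 to 0.84 (adjusted p = 0.644 by edgeR), and without GFP replicate 2 it was -0.08 (adjusted p = 0.853). BMP2 (ENSG00000125845, chromosome 20 from 6767686 to 6780246), its close paralog, was counted 3, 2 and 0 times in the GFP libraries and 0, 1 and 0 times in the RBFOX1 libraries. At most 3 counts were found in any library, the limit that a count of 0 allows, so no fold is given and a difference was not detectable at this depth.

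SMAD7 (ENSG00000101665, chromosome 18 from 48919853 to 48950965), the feedback inhibitor, moved the other way. It had 126, 127 and 99 normalized counts in GFP and 74.4, 72.2 and 83.1 in RBFOX1 libraries. All RBFOX1 libraries were below all GFP libraries. The log2 fold change was -0.61 (standard error 0.137, adjusted p = 0.000932 by edgeR), GFP cells having 1.53-fold the level of RBFOX1 cells. With all libraries thinned to the depth of the shallowest, the value was -0.40 and no longer passed the threshold (adjusted p = 0.0931 by edgeR).

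The ID genes diverged from each other. ID2 (ENSG00000115738, chromosome 2 from 8678845 to 8684461), a partner of E proteins that is prominent in neural precursors, had 34.6, 29.2 and 30.6 normalized counts in GFP and 198, 212 and 189 in RBFOX1 libraries. Its log2 fold change was 2.63 (standard error 0.135, adjusted p = 2.46e-12 by edgeR), or 6.35-fold, the second largest of the 9 genes. ID3 (ENSG00000117318, chromosome 1 from 23557926 to 23559501) had 82, 75.9 and 87.4 normalized counts in GFP and 167, 187 and 194 in RBFOX1 libraries. Its log2 fold change was 1.17 (standard error 0.114, adjusted p = 4.5e-08 by edgeR), or 2.23-fold. For both genes the lowest RBFOX1 library was above the highest GFP library.

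ID1 (ENSG00000125968, chromosome 20 from 31605283 to 31606515), the paralog most used as a readout of BMP signalling, fell slightly. Its normalized counts were 582, 569 and 524 in GFP and 435, 494 and 487 in RBFOX1 libraries, so the groups did not overlap but came close. The log2 fold change was -0.24 (standard error 0.0726, adjusted p = 0.0113 by edgeR). Without RBFOX1 replicate 1, its lowest library, the value was -0.18 and did not pass the threshold (adjusted p = 0.0631 by edgeR).

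Per kilobase of exon, the summed level of ID1, ID2, ID3 and ID4 was 523 ± 23.1 (SD, n = 3) in GFP and 600.1 ± 35.8 (SD, n = 3) in RBFOX1 cells, a 1.15-fold difference. ID1 held 87, 87.5 and 85.4% of it in the GFP libraries and 63.1, 63.9 and 64.4% in the RBFOX1 libraries. ID2 went from 2.72 ± 0.194% to 15.1 ± 1.04% and ID3 from 10.5 ± 1.12% to 20.3 ± 0.692% (SD, n = 3 each). ID1 remained the most abundant of the family in every library.

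Ranked by level per kilobase of exon, the GFP cells had ID1 at 453 ± 24.9, TGFB1 at 216 ± 25.4, TGFB2 at 85.3 ± 8.37, ID3 at 54.7 ± 3.86, SMAD7 at 29.7 ± 4.02 and ID2 at 14.2 ± 1.27 (SD, n = 3). BMP4, TGFB3, INHBA and BMP2 followed at means of 5.81, 3.77, 0.934 and 0.391, and the libraries of BMP4 and TGFB3 overlapped. In RBFOX1 cells the order was ID1 at 383 ± 26, TGFB2 at 240.1 ± 14.5, TGFB1 at 194 ± 13.5, ID3 at 122 ± 9.25 and ID2 at 90.2 ± 5.26 (SD, n = 3). TGFB3 and SMAD7 came next at 21.7 ± 1.11 and 19.4 ± 1.47 (SD, n = 3) with overlapping libraries, and INHBA, BMP4 and BMP2 had means of 14.7, 7.13 and 0.104. ID2 thus went from below SMAD7 to above it, and TGFB2 from below TGFB1 to above it.

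**Figure D3:**
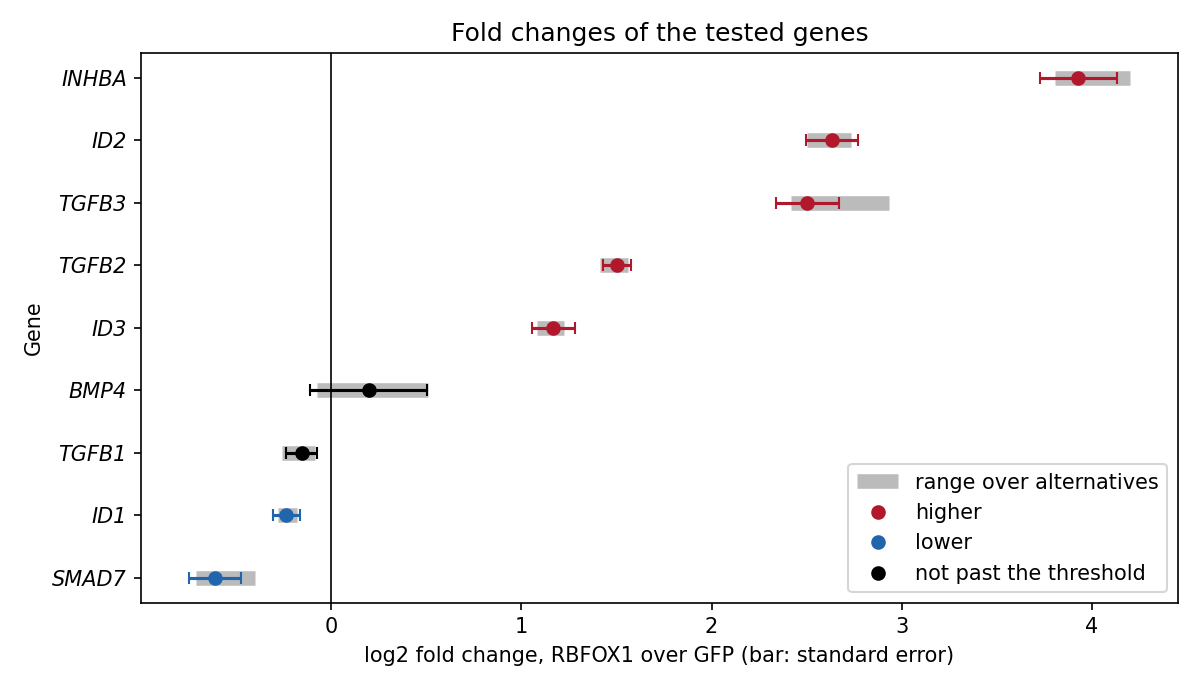
Fitted log2 fold change, RBFOX1 over GFP, of the 9 tested genes, with the standard error as a thin bar and the range over 15 alternative settings as a grey band. INHBA, ID2, TGFB3, TGFB2 and ID3 (red) stay above 1 throughout, ID1 and SMAD7 (blue) and TGFB1 (black) stay below 0, and the band of BMP4 crosses 0.

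The other genes of the pathway were read from 8 lists by role, with the 10 genes left out. Some genes stand in several lists and are counted in each, but only once in the totals that follow. Of 130 genes 96 were tested, of which 32 were higher and 33 were lower, with a median log2 fold change of 0.01. That is 67.7% called, beside 46.6% of all genes tested. By list the share called ran from 42.1% (SMADs and intracellular regulators) to 91.7% (TGF-beta responsive genes). LEFTY2, BMP10, TLL1, DAND5 and ATOH8 had 3 counts or fewer in each GFP library and were called higher. They passed the filter on summed counts only through the RBFOX1 libraries, so a call of lower was not open to them. The same holds for GDF5, called higher with 5, 1 and 1 counts in the GFP libraries and 13, 20 and 13 in the RBFOX1 libraries.

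Among the other ligands, 9 of 16 tested genes rose, 1 fell and 6 did not pass, with a median log2 fold change of 0.47. The 9 include LEFTY2 and BMP10, both at 0 counts in every GFP library, and GDF5, all open only to a call of higher. With edgeR's own expression filter, or with thinned counts, 6 ligands were higher. INHBE, which encodes the activin beta E subunit, rose by 1.14 (standard error 0.0879) on the log2 scale, and GDF11, a ligand close to myostatin, by 0.45 (standard error 0.0829). BMP6 and BMP7, named after their values were seen, were at 11.2 ± 3.42 and 108 ± 4.81 normalized counts in GFP and at 31.5 ± 2.55 and 127 ± 4.97 in RBFOX1 cells (SD, n = 3), and BMP6 passed the threshold (adjusted p = 0.000159 by edgeR) while BMP7 did not (adjusted p = 0.0986). GDF15, a stress-induced cytokine, fell by 0.40 on the log2 scale (standard error 0.0521). LEFTY2, an antagonistic ligand named here after its values were seen, had 0 counts in each GFP library and 13, 22 and 23 in the RBFOX1 libraries, at least 8.13-fold higher against 3 counts per library.

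Of the receptors and co-receptors, 1 of 14 tested genes rose, 8 fell and 5 did not pass, with a median of -0.28. TGFBR2, the type II receptor that binds TGF-beta, had 3448, 3675 and 3683 normalized counts in GFP and 1246, 1315 and 1087 in RBFOX1 libraries. Its log2 fold change was -1.57 (standard error 0.0625, adjusted p = 5.42e-14 by edgeR), opposite to that of TGFB2. TGFBR1, the type I receptor, named after its values were seen, fell by 1.00 on the log2 scale (adjusted p = 1.64e-11 by edgeR), from 2227 ± 141 to 1107 ± 47.8 normalized counts (SD, n = 3). ACVRL1, a type I receptor of endothelium that binds BMP9, fell by 1.57 on the log2 scale, and ACVR2A, a type II receptor of activins, rose by 0.31 (adjusted p = 0.0284 by edgeR). That 1 call among the receptors was lost under DESeq2, at an adjusted p under 0.01, at a minimum of 1.5-fold and without RBFOX1 replicate 1 or 3, while without GFP replicate 3 there were 3 receptors higher.

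Of 19 SMADs and intracellular regulators, 4 rose, 4 fell and 11 did not pass, with a median of 0.00. That is 42.1% called, below the 46.6% of all genes tested. The split depended on the scaling, being 4 higher and 8 lower with upper-quartile factors, and was 5 higher and 6 lower without GFP replicate 1. The receptor-activated SMAD1, SMAD2, SMAD3, SMAD5 and SMAD9 and the common SMAD4 did not pass the threshold, at log2 fold changes of 0.00, -0.11, 0.01, 0.09, 0.19 and -0.15. SMAD4 came close, with a 95% interval from -0.29 to -0.02 (adjusted p = 0.0565 by edgeR). The groups did not overlap for SMAD4, nor for SMAD2 and SMAD5 (adjusted p = 0.0983 and 0.127 by edgeR). The co-repressor genes TGIF2 and SKI rose by 0.71 and 0.53, and SMURF1, a ubiquitin ligase of SMADs and receptors, and PMEPA1, a feedback inhibitor induced by TGF-beta, fell by 1.05 and 1.11 on the log2 scale. SMAD6, the other inhibitory SMAD and a BMP target, rose by 0.41 (standard error 0.112), in the opposite direction to SMAD7.

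Of the extracellular antagonists, 6 of 9 tested genes rose, 0 fell and 3 did not pass, with a median of 0.83. FSTL3 and FST, which encode secreted proteins that bind and neutralise activin, rose by 1.42 (standard error 0.0573) and 1.01 (standard error 0.156) on the log2 scale alongside INHBA. FST had 44.3, 60.7 and 43.2 normalized counts in GFP and 105, 92.2 and 97.7 in RBFOX1 libraries.

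Of the latency and activation genes, 6 of 15 tested rose, 7 fell and 2 did not pass, with a median of -0.46. THBS1, encoding thrombospondin, which can activate latent TGF-beta, rose 8.12-fold and FBN1, encoding a microfibril protein that anchors latent complexes, 2.62-fold. LTBP2, encoding a microfibril-associated protein, fell by 1.39 on the log2 scale, and FBN2, the paralog of FBN1, fell by 1.97.

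Of the TGF-beta responsive genes, 3 of 12 tested rose, 8 fell and 1 did not pass, with a median of -0.30. The 3 rises were large, while most of the list fell. TAGLN, a smooth muscle actin-binding protein gene, went from 72.5 ± 7.69 to 2833 ± 102 normalized counts (SD, n = 3), and COL1A1, a collagen gene, from 46.9 ± 7.72 to 802 ± 147 (SD, n = 3). CCN2, a matricellular growth factor gene named after its values were seen, rose by 1.75 on the log2 scale. The direction differed between the members of the list. Of the 8 that fell, LTBP2, PMEPA1 and BHLHE40 did so by 1.39, 1.11 and 0.80 on the log2 scale.

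Of the BMP responsive genes other than the ID members, 3 of 8 tested rose, 2 fell and 3 did not pass, with a median of 0.16. MSX1, a homeobox gene, fell by 0.94 on the log2 scale (standard error 0.124), in contrast to ID2 and ID3. ID4, a further ID paralog that also rose, was counted 3, 6 and 2 times in the GFP libraries and 12, 22 and 16 times in the RBFOX1 libraries. Among ID partners and bHLH factors, 2 of 12 tested rose, 7 fell and 3 did not pass, with a median of -0.40. With thinned counts or a minimum of 1.5-fold, 4 in place of 7 were lower. The 2 that rose were TCF4 and ID4, the latter also counted among the BMP responsive genes. TCF4, encoding an E protein that ID proteins bind, rose by 1.03 (standard error 0.0577), whereas TWIST2 and BHLHE40, encoding bHLH repressors, fell by 0.98 and 0.80 on the log2 scale.

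**Figure D4:**
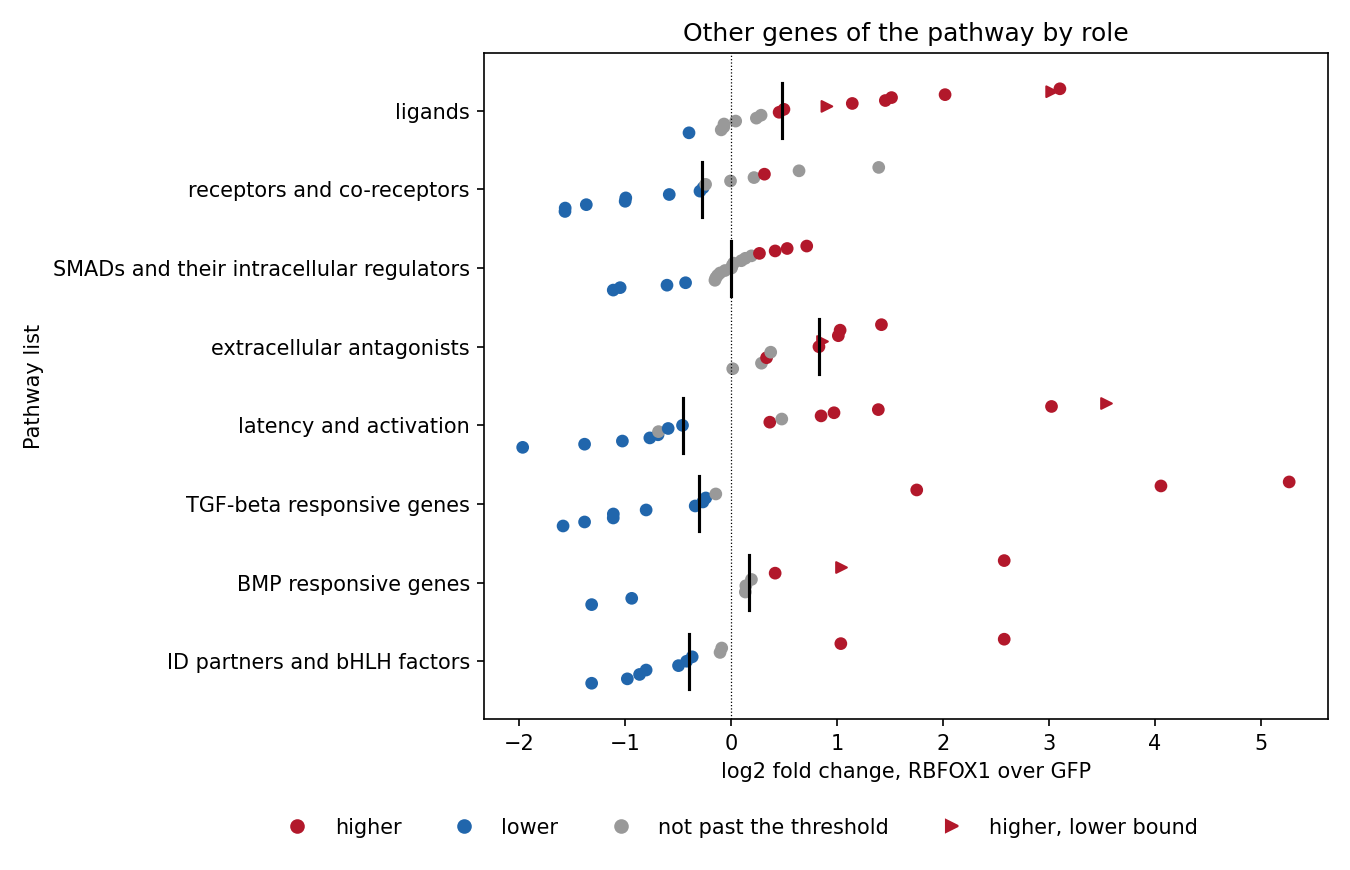
Log2 fold change, RBFOX1 over GFP, of the tested pathway genes other than the 10, one point per gene in each of 8 lists by role, with a black line at the median. Triangles are lower bounds for genes with 3 counts or fewer in each GFP library, and NEUROG2, at that limit in both groups, is not drawn. The medians run from -0.46 (latency and activation) to 0.83 (extracellular antagonists).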

How the data were processed

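Stranded paired-end libraries were made from rRNA-depleted RNA of 6 A172 samples, 3 per condition. Reads were aligned by the authors with HISAT2 (GRCh38) and assigned to Ensembl v87 genes with HTSeq's intersection-strict mode, and the deposited counts per gene and library are not normalized. Genes took 52 to 61.9% of read pairs, and the 5 classes holding the rest were left out. A deposited DESeq2 table of the authors' own comparison (fold changes, errors, p-values) was not used.

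Counts were normalized by TMM and tested with edgeR 4.0.16 (R 4.3.3), two-sided, on condition alone, for genes with at least 10 summed counts, with Benjamini-Hochberg adjustment. Symbols, lengths and 3′ UTRs came from GENCODE release 44 (98.1% of identifiers matched). Alternatives were DESeq2 1.42.0, limma-voom (3.58.1), other scalings, filters, thresholds, thinning, a replicate block and leaving out each replicate. The procedure was tested on simulated data.

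The members and lists were chosen with earlier results of these data known. Genes named were the members, RBFOX1, genes overlapping a member, each member's most alike gene and, per list, the 2 largest rises and falls among called genes with a mean of at least 50 normalized counts and separate groups. SMAD1 to SMAD5, SMAD9, ID4, TGFBR1, CCN2, BMP6, BMP7, BMP10, GDF5, LEFTY2, TLL1, DAND5 and ATOH8 were added after their values were seen. A few genes that the rule names are not reported here. The study describes 3 biological replicates per line, but p-values measure only the spread between these samples, and limits of 3 counts cover counting error only.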

Additional observations from a re-analysis of the deposited data

How the results depend on the processing

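Over 15 alternatives the fold changes of the 9 tested genes kept their direction and side of the threshold in 131 of 135 values, and TGFB2, TGFB3, INHBA, ID2 and ID3 were called higher in all. The exceptions were TGFB1 and BMP4 without 1 GFP library, SMAD7 under thinning and ID1 without RBFOX1 replicate 1. BMP4 ranged from -0.0768 (without GFP replicate 2) to 0.507 (without GFP replicate 1) with each replicate left out. The number of the set called lower, 2, became 1 under thinned counts, with a minimum of 1.5-fold and with an adjusted p under 0.01, and lay between 1 and 3 with each replicate left out. The minimum of 1.5-fold left 4689 of the 9580 calls over all genes, 2660 higher and 2029 lower. Over all 17 alternatives the calls of the pathway lists lay at 6 to 10 higher for ligands, 6 to 9 lower for receptors, 1 to 5 higher and 3 to 8 lower for SMADs and regulators, 5 to 8 higher for antagonists, 5 to 9 lower for TGF-beta responsive genes (5 at 1.5-fold) and 4 to 8 lower for ID partners. Without length correction the ID1 share differed by -28.69 and the ID2 share by 18.2 percentage points, against -22.84 and 12.33 with it. Other scalings shifted the median of genes with at least 50 normalized counts to between -0.04 and 0.03 on the log2 scale.

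Deviations of same-numbered libraries correlated at -0.174, 0.035 and -0.059, and those of other-numbered libraries at -0.161 to 0.181. The labels do not say whether the numbers pair libraries, and correlations over 3 libraries per group cannot settle it. With a replicate block, 5 of the set were called higher and 2 lower, and over all genes 9046 were called.

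Depth limits BMP2, BMP4 and the INHBA level in GFP cells, where 3 counts were worth 1.82 to 5.44 normalized counts.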

Other observations

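Genes with exons overlapping those of a member had few counts of their own, apart from HNRNPUL1, which overlaps TGFB1 exons on the opposite strand and had 1692 to 3640 counts. TGFB2-AS1 had 3 to 4 counts, TGFB3-AS1 0 to 1, INHBA-AS1 0 to 3 and ID2-AS1 2 to 15 per library. TGFB2-OT1 lies within TGFB2 on the same strand and was at 0 in all libraries. Reads falling on exons of both TGFB2 and TGFB2-OT1 are in the class of ambiguous reads and in neither count. Whether this holds for genes on opposite strands depends on the strand setting of the counting, which is not given.

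The protein-coding gene with the profile most alike to that of a tested gene was taken as the one with the smallest root-mean-square difference of centred log2 CPM over the 6 libraries, among 11061 genes. It was MRPS6 for TGFB2 (difference 0.0423), ADAM11 for INHBA (0.143), OLFML3 for ID2 (0.0515) and TRIM59 for ID3 (0.0462). It was NPR2 for SMAD7 (0.0595), DPM1 for ID1 (0.0276), SRM for TGFB1 (0.0222) and BRF1 for BMP4 (0.183). The difference from a flat profile was 0.139 for TGFB1, 0.48 for BMP4 and 1.85 for INHBA. A like fold change alone can give a small difference on this measure, and shared regulation was not tested. OLFML3, encoding a secreted matrix protein, went from 70.7 ± 3.46 to 433 ± 30.1 normalized counts (SD, n = 3).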
